A study of Mus musculus with 18 samples.

Results

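A set of 9 genes encoding RNA-binding regulators of alternative splicing was followed in mouse E14 embryonic stem cells by ribosome profiling, which counts the mRNA fragments that ribosomes shield from nuclease. The genes, fixed by name and Ensembl ID, were Rbfox2, Mbnl1, Mbnl2, Celf1, Ptbp1, Ptbp2, Hnrnpa1, Rbm24 and Rbm20. Their IDs as deposited are given where each is described. All 9 were found among the 51826 features, and all 9 passed the filter on low counts that left 13701 features for testing. The lines were unedited E14 cells (WT) and knockouts (KO) of Quaking or of Sam68 made in that background. Each line was sampled as stem cells (day 0) and again as embryoid bodies (day 10), which are floating clumps of differentiating stem cells that produce a mixture of cell types of the early embryo. This gave 6 groups of 3 libraries, stated in the series' design to be biological triplicates, and every culture received cycloheximide to stall its ribosomes. Whether each knockout line is a single clone is not given in the sources used here. The question was whether any of these regulators had more footprints in cells that had lost Quaking or Sam68.

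Quaking and Sam68 belong to the STAR family of RNA-binding proteins, and both control splicing. Splicing factors often act on shared exons, so the loss of one can be met by another. Stem cells are rich in PTBP1, which represses exons used in neurons and muscle, and its relative PTBP2 takes its place as neurons form. MBNL proteins promote the exon choices of differentiated cells, CELF1 often opposes them in heart and skeletal muscle, and RBM24 and RBM20 act mainly in striated muscle. RBFOX2 is active in stem cells and in many tissues.

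Total counts ranged from 988210 to 10646768 per library. In 3 day 10 libraries, WT replicate 3 and Sam68 KO replicates 2 and 3, the 10 largest features took between 60.2% and 70.4% of all counts; elsewhere at day 10 they took 30.2% or less, and at day 0 between 7.01% and 21.3%. WT replicate 3 was the shallowest after scaling: 3 counts there equalled 7.05 CPM (counts after scaling every library to a common size). The sample descriptions name a mix for each library. WT and Quaking KO shared MIX_1 at day 0, both knockouts shared MIX_3 at day 10, and MIX_2 joined WT at day 10 with Sam68 KO at day 0. Outside those 2 same-day pairs, mix and group cannot be told apart. Footprints alone do not separate mRNA amount from translation, and in embryoid bodies fewer cells of a type cannot be told apart from less RNA per cell. The transcripts of Quaking and Sam68 and the markers of stem cells or muscle could not be looked up by name, so genotype and cell type rest on the labels.

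Of the 9 genes, 5 moved the same way between the days in all 3 lines: Ptbp1 and Celf1 fell, and Mbnl1, Mbnl2 and Rbm24 rose. The share of all features that did so in all 3 lines was not counted. In each single line 64.1% to 65.3% of features were called, so the 5 are not set apart by this count. The DNA just upstream is shown for 4 of these 5. They had a plus-strand RefSeq promoter window that began far enough before the gene's RefSeq span. Mbnl1 had 2 windows, and neither met this rule. The sequences are from RefSeq on GRCm38.p6, and each ends at the base before the gene's RefSeq span. All 4 lie on the plus strand and run 5′ to 3′: Ptbp1 at chr10:79854182-79854431, Celf1 at chr2:90940147-90940258, Mbnl2 at chr14:120275419-120275651 and Rbm24 at chr13:46418050-46418101. Capitals mark the E-box letters CANNTG, which read the same on both strands.
Ptbp1: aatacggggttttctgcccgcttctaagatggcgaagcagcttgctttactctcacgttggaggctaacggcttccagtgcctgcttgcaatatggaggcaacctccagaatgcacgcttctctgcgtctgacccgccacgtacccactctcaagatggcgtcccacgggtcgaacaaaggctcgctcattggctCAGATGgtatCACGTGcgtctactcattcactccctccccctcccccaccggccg
Celf1: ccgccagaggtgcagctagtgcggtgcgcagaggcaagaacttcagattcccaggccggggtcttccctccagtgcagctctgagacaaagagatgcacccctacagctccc
Mbnl2: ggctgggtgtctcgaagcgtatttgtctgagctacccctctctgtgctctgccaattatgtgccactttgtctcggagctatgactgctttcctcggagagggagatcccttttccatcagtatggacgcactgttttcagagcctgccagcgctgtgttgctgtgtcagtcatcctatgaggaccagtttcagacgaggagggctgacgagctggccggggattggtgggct
Rbm24: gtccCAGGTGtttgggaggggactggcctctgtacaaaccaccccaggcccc
The Ptbp1 stretch of 250 bases held 2 E-box matches and 17 CpG dinucleotides. The second was CACGTG, a form of the same motif. Of 32851 RefSeq promoter windows cut to the same length, 66.2% held CANNTG and 6.02% held CACGTG. Each window runs from 250 bases before its start site to 50 after, and the cut kept its first bases. For the shorter stretches the kept bases of the other windows need not adjoin a gene. The 52 bases before Rbm24 held 1 match and no CpG, where 20.1% of windows of that length held a match. The stretches before Mbnl2 (233 bases) and Celf1 (112 bases) held none, against 63.9% and 39.6% of windows. GC content was 57.6% for Ptbp1, 61.6% for Celf1, 55.4% for Mbnl2 and 65.4% for Rbm24. These matches describe the letters only. The other 5 members are given without sequence.

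Ptbp1 (ENSMUSG00000006498.16, chromosome 10, 79854432 to 79864435), the polypyrimidine tract-binding repressor, lost footprints in every line. It measured 793, 765 and 875 CPM in WT at day 0 and 435, 439 and 352 at day 10. In Quaking KO it went from 772, 684 and 857 CPM to 443, 416 and 454. In Sam68 KO it went from 792, 747 and 741 CPM to 457, 394 and 428. No day 10 library reached any day 0 library. The log2 fold changes were -0.98 (SE 0.12) in WT, -0.82 (SE 0.12) in Quaking KO and -0.83 (SE 0.12) in Sam68 KO, with adjusted p of 1.44e-07, 2.34e-06 and 1.65e-06 (edgeR). A gene is called where this p, adjusted over all features tested, lies below 0.05. The 3 lines overlapped at each day.

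Celf1 (ENSMUSG00000005506.16, chromosome 2, 90940259 to 91019497), whose protein binds GU-rich RNA, also fell. Its mean was 222 ± 18.4 CPM (SD, n = 3) in WT at day 0 and 139 ± 15.1 at day 10. It went from 196 ± 5.43 to 124 ± 17.7 CPM in Quaking KO and from 197 ± 16.1 to 137 ± 15.2 in Sam68 KO. The lowest day 0 library, at 182 CPM in Sam68 KO, lay above the highest day 10 library, at 152 CPM in WT. Log2 fold changes were -0.66 in WT (edgeR adjusted p = 0.00014), -0.66 in Quaking KO (0.000142) and -0.52 in Sam68 KO (0.0014). The Sam68 KO call was lost once the 3 dominated libraries were dropped, with 1 Sam68 KO library remaining at day 10 (log2 fold change -0.39, edgeR adjusted p = 0.0608).

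Hnrnpa1 (ENSMUSG00000046434.15, chromosome 15, 103239943 to 103246698) encodes an abundant nuclear protein that silences exons. Its values were low, at 11.4 to 13.7 CPM in WT, 10.3 to 16.1 in Quaking KO and 13.2 to 23.8 in Sam68 KO at day 0. The gene has near-identical copies elsewhere in the genome, and how reads matching several places were counted is not given in the sources used here, so its level is uncertain. At day 10 it measured 5.1, 5.1 and 11.7 CPM in WT, 8.35, 12.1 and 10.4 in Quaking KO and 6.54, 9.56 and 14.8 in Sam68 KO. It fell in WT (-1.12 on the log2 scale with SE 0.33, edgeR adjusted p = 0.00431) and Sam68 KO (-1.04, SE 0.31, 0.00469), although the days overlapped in both. In Quaking KO the difference of -0.44 (95% interval -1.08 to 0.21) did not pass (edgeR adjusted p = 0.227). On thinning every library to the same total, neither WT (edgeR adjusted p = 0.151) nor Sam68 KO (0.161) passed.

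**Figure D1:**
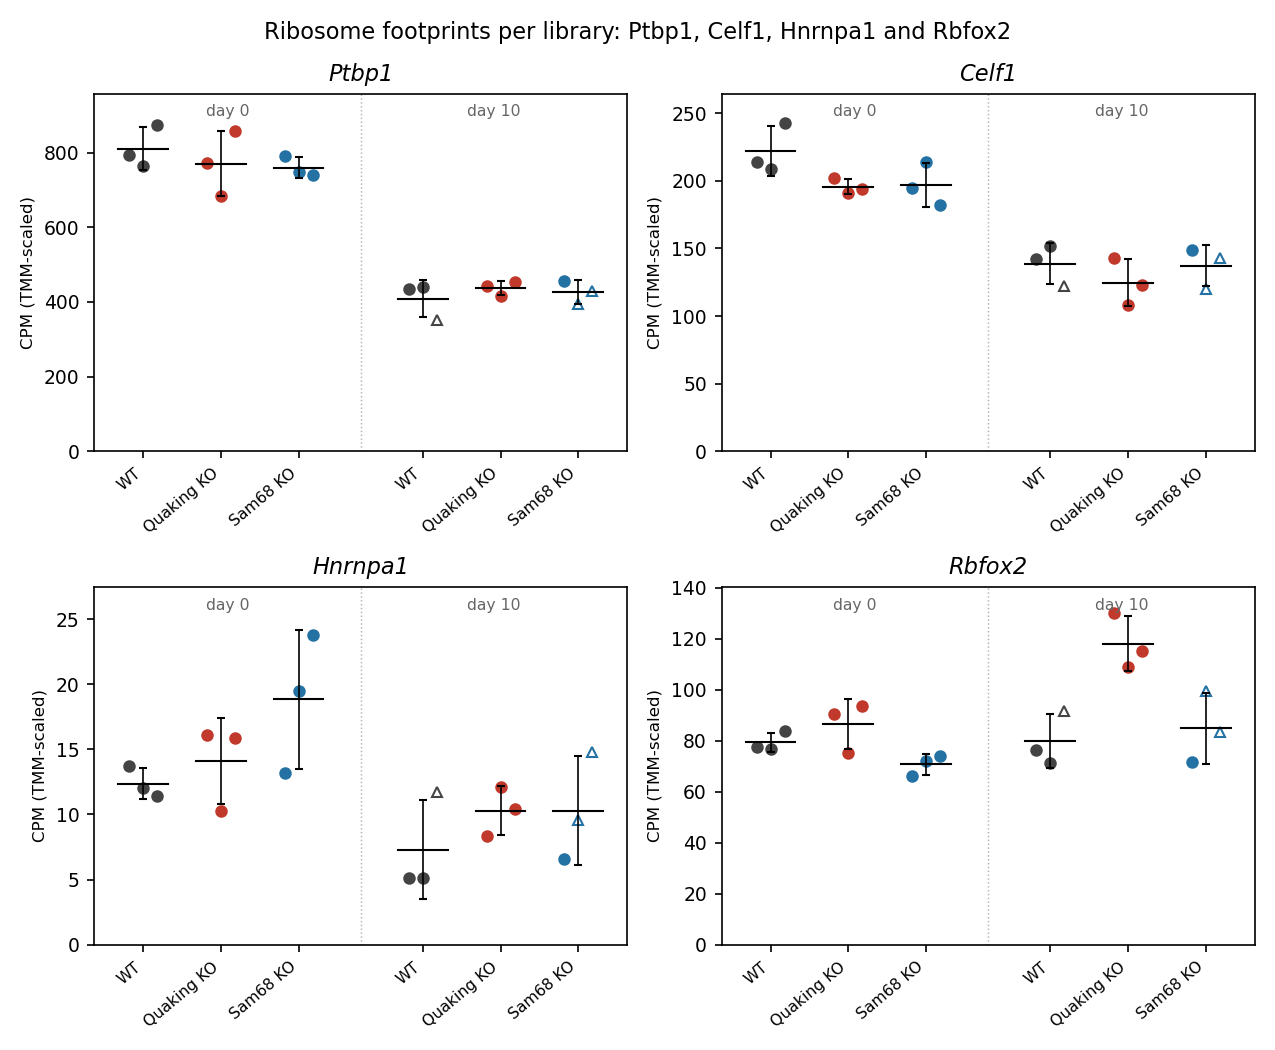
Ribosome footprints of Ptbp1, Celf1, Hnrnpa1 and Rbfox2 in each of 18 libraries, as TMM-scaled CPM on a linear axis from 0, by line and day; horizontal lines are means and whiskers SD (n = 3), and open triangles are the 3 libraries dominated by few features. Ptbp1 and Celf1 separate by day in every line, and Rbfox2 is highest in Quaking KO at day 10, at 109 to 130 CPM.

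Rbm24 (ENSMUSG00000038132.5, chromosome 13, 46418102 to 46431099), a factor needed for muscle-specific exon inclusion, had the largest rise of the 9 genes in WT and Sam68 KO. It had 5 to 11 counts per WT library at day 0 and measured 1.02, 1.54 and 0.388 CPM; at day 10 it measured 17.8, 13.7 and 14.1. Quaking KO held 3 counts over its day 0 libraries and 8.35, 9.81 and 17.9 CPM at day 10. Sam68 KO went from 1.04, 0.602 and 1.92 CPM to 44.7, 40.6 and 29.6. The days were far apart in every line, and the Sam68 KO embryoid bodies stood above all others. The log2 fold change was 4.08 in WT (SE 0.43, edgeR adjusted p = 9.37e-09) and 5.07 in Sam68 KO (SE 0.41, 1.07e-10). For Quaking KO the ratio of day 10 to day 0 was 36.0, with a 95% counting interval of 12.0 to 177 (edgeR adjusted p = 1.66e-07).

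Mbnl1 (ENSMUSG00000027763.13, chromosome 3, 60472559 to 60629750), a muscleblind gene, rose from a few CPM. WT day 0 libraries held 2.18, 2.51 and 2.25 CPM and day 10 libraries 15.3, 18.2 and 4.7, the last resting on 2 counts. In Quaking KO it had 7, 0 and 1 counts at day 0, where 0 counts allow up to 1.72 CPM, and 26.0, 28.9 and 26.1 CPM at day 10. Sam68 KO went from 2.94, 1.81 and 1.92 CPM to 11.4, 14.8 and 18.5. All day 10 libraries exceeded all day 0 libraries, and the 3 Quaking KO embryoid bodies were the highest of the 18. Log2 fold changes were 2.68 in WT (SE 0.37, edgeR adjusted p = 1.01e-06), 4.80 in Quaking KO (SE 0.49, 6.03e-09) and 2.70 in Sam68 KO (SE 0.39, 1.62e-06). Without Quaking KO day 0 replicate 1, which leaves 1 count at day 0, the Quaking KO value was 6.87 (edgeR adjusted p = 5.91e-09). A fit with mix as a block assumes that the 3 lines change alike with the day. Its day effect is the WT change plus the Sam68 KO change minus the Quaking KO change. For Mbnl1 that combination was 0.57 (edgeR adjusted p = 0.626), which does not test the rise within a line.

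Mbnl2 (ENSMUSG00000022139.16, chromosome 14, 120275652 to 120431698), its paralog, rose in each line. It measured 37.8, 25.3 and 25.9 CPM in WT at day 0 and 121, 104 and 65.8 at day 10. Quaking KO went from 19.7, 23.0 and 15.6 CPM to 82.5, 80.6 and 72.3. Sam68 KO went from 41.7, 38.8 and 27.9 CPM to 146, 118 and 101. At each day Quaking KO had the lowest mean and Sam68 KO the highest. Log2 fold changes were 1.78 (SE 0.21), 2.03 (SE 0.23) and 1.76 (SE 0.20) in WT, Quaking KO and Sam68 KO, with edgeR adjusted p of 5.74e-08, 2.86e-08 and 5.2e-08.

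Rbm20 (ENSMUSG00000043639.14, chromosome 19, 53660989 to 53867083) encodes the factor that controls splicing of titin in heart. At day 0 the 9 libraries held 2.39 to 4.59 CPM, and no line stood apart. At day 10 it measured 11.9, 13.9 and 14.8 CPM in Sam68 KO, 2.7, 8.64 and 0 in WT, and 0.928, 3.36 and 1.12 in Quaking KO. The WT library with no count could have held up to 7.05 CPM. Rbm20 rose in Sam68 KO (1.94 on the log2 scale with SE 0.45, edgeR adjusted p = 0.000622). In WT the change was 0.54 (95% interval -0.44 to 1.51; edgeR adjusted p = 0.327) and in Quaking KO -0.76 (-1.97 to 0.45; 0.263), and neither passed.

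**Figure D2:**
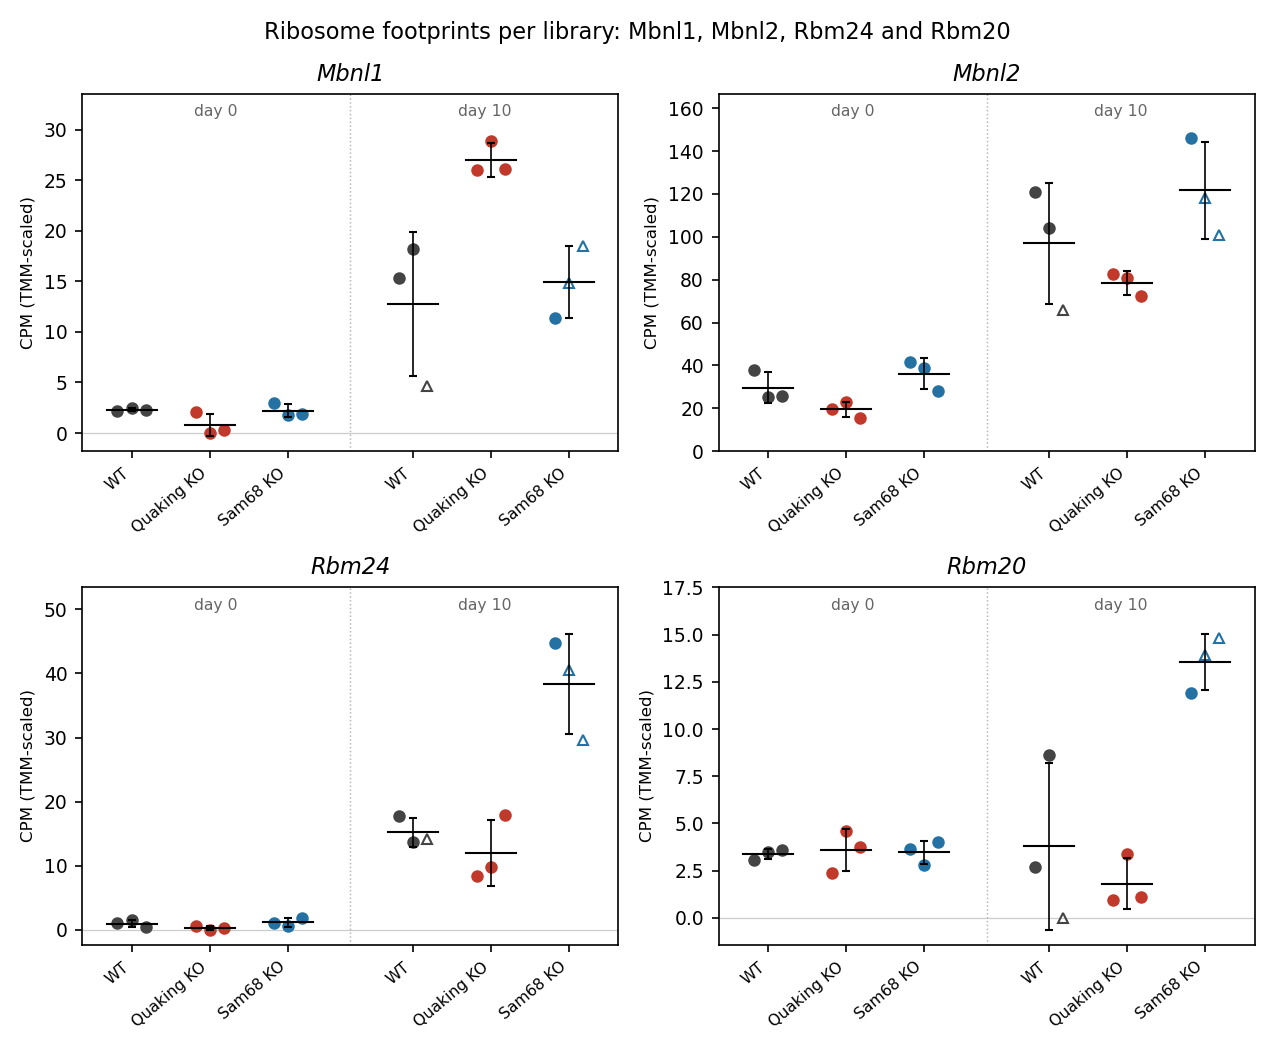
Ribosome footprints of Mbnl1, Mbnl2, Rbm24 and Rbm20 in each of 18 libraries, drawn as TMM-scaled CPM on linear axes by line and day; horizontal lines are means, whiskers SD (n = 3) and open triangles the 3 libraries dominated by few features. Mbnl1 is highest in Quaking KO at day 10 (26.0 to 28.9 CPM), and Rbm24 and Rbm20 are highest in Sam68 KO at day 10 (29.6 to 44.7 and 11.9 to 14.8 CPM).

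Ptbp2 (ENSMUSG00000028134.11, chromosome 3, 119718741 to 119784647), the neuronal paralog of Ptbp1, was highest at day 10 in the libraries that few features dominated. It measured 327 CPM in WT replicate 3 and 136 and 334 CPM in Sam68 KO replicates 2 and 3. The other 6 day 10 libraries held 32.3 to 64.3 CPM, and the 9 day 0 libraries 20.4 to 48.3. For the other 8 genes the dominated libraries were not all above the rest of day 10; Rbfox2, for example, measured 83.3 to 99.4 CPM in them and 71.3 to 130 elsewhere. The part of library composition in the Ptbp2 values was not tested. With all libraries Ptbp2 rose in Sam68 KO (2.76 on the log2 scale with SE 0.82, edgeR adjusted p = 0.0099), and did not pass in WT (1.84, 0.0729) or Quaking KO (0.61, 0.535). Without the 3 dominated libraries the changes were 1.11 in Sam68 KO (edgeR adjusted p = 0.000159), 0.22 in WT (0.34) and 0.63 in Quaking KO (0.00449), where 50.8%, 59.8% and 60.2% of features passed. That fit holds 1 Sam68 KO and 2 WT libraries at day 10, and the lone library is assumed to vary like the other groups. The Sam68 KO call was lost without its replicate 3 alone (1.78, edgeR adjusted p = 0.0658), and WT passed without its replicate 1 (2.29, 0.0344) or 2 (2.43, 0.0269), or by DESeq2 (2.16, adjusted p = 0.00925).

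**Figure D3:**
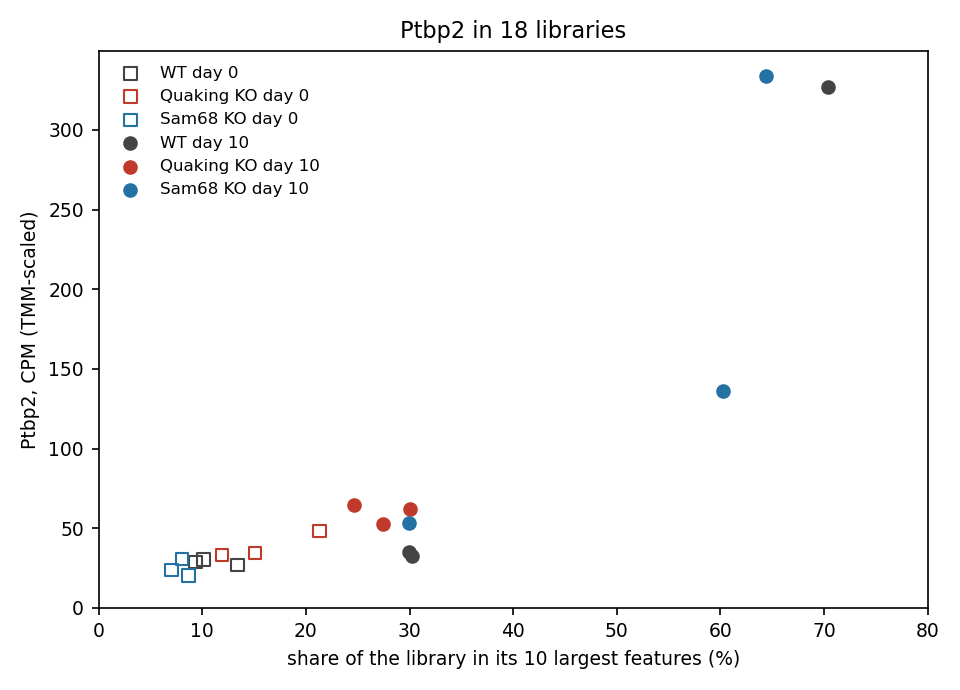
Ptbp2 in TMM-scaled CPM (y axis) against the share of each library's counts in its 10 largest features in percent (x axis), with 1 point per library; squares are day 0 and circles day 10. The 3 libraries at 60.2% and above hold 136 to 334 CPM, and the other 15 lie between 20.4 and 64.3 CPM.

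Rbfox2 (ENSMUSG00000033565.16, chromosome 15, 77078990 to 77308434), whose protein binds UGCAUG, changed with time in Quaking KO, at 90.4, 75.2 and 93.6 CPM at day 0 and 130, 109 and 115 at day 10. WT held 77.6, 76.8 and 83.7 CPM and then 76.5, 71.3 and 91.6. Sam68 KO held 66.1, 72.1 and 74.0 CPM and then 71.6, 99.4 and 83.3. The Quaking KO days did not overlap, whereas those of WT and Sam68 KO did. The log2 fold change was 0.44 in Quaking KO (SE 0.14, edgeR adjusted p = 0.0102), -0.03 in WT (0.873) and 0.25 in Sam68 KO (0.123). The Quaking KO call was lost without its day 0 replicate 2 (0.30, edgeR adjusted p = 0.101), without its day 10 replicate 1 (0.33, 0.0591) and with no filter on low counts (0.18, 0.609).

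Over the 10 days, 6 of the 9 genes were called in WT (3 higher, 3 lower), 6 in Quaking KO (4 higher, 2 lower) and 8 in Sam68 KO (5 higher, 3 lower). Most features tested differed between the days: 65.0%, 64.1% and 65.3% of them were called in WT, Quaking KO and Sam68 KO. The shares called higher and lower were 34.9% and 30.1% in WT, 34.7% and 29.4% in Quaking KO, and 34.9% and 30.5% in Sam68 KO. With no filter on low counts the larger share was the lower one: 49.0%, 47.2% and 47.7% of calls were higher in the 3 lines. The members' share is near the background in WT and Quaking KO. Their median log2 fold changes were 0.54, 0.44 and 1.76, beside 0.10, 0.11 and 0.11 over all features. The days did not overlap for 6, 7 and 7 members, beside 67.0%, 65.2% and 69.9% of features. For these comparisons the mix differed along with the day. A fit with mix as a block separates mix from day only by assuming that all lines change alike. Its day effect is the WT change plus the Sam68 KO change minus the Quaking KO change. That combination was -0.52 for Celf1 (edgeR adjusted p = 0.0737), -0.21 for Rbfox2 (0.532) and 3.24 for Rbm20 (0.00458). It was 3.99 for Ptbp2 (edgeR adjusted p = 0.0399), -1.72 for Hnrnpa1 (0.0136) and 4.11 for Rbm24 (0.019). None of these is the change of a single line.

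**Figure D4:**
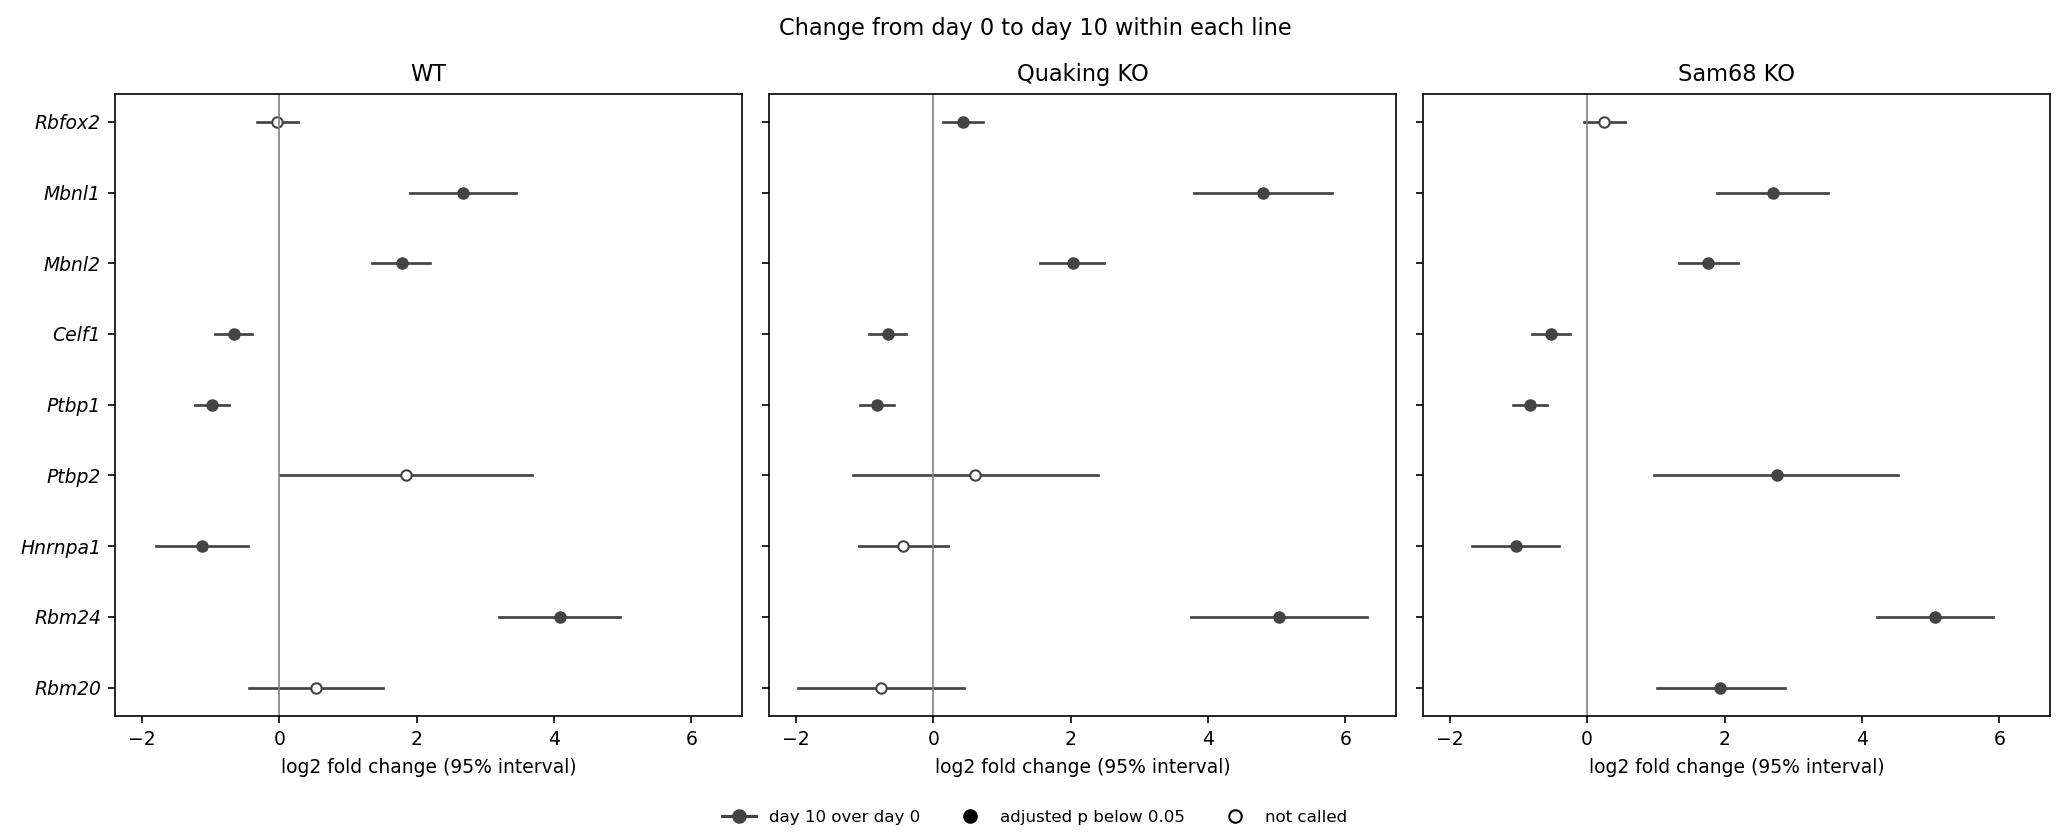
Log2 fold changes of day 10 over day 0 with 95% intervals (x axis) for the 9 genes (y axis) in WT, Quaking KO and Sam68 KO; filled points passed an edgeR adjusted p of 0.05. Rbm24 lies farthest above 0 in WT (4.08) and Sam68 KO (5.07), Ptbp1 and Celf1 lie below 0 in all 3, and Ptbp2 has the widest intervals.

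Only 1 of 36 tests of a member in a knockout against WT at the same day passed, the higher Rbfox2 in Quaking KO embryoid bodies. At day 0 none of the 9 genes was called in either knockout. edgeR called 0.365% of all features for Quaking KO and 1.26% for Sam68 KO there, and DESeq2 also called none of the 9, beside 0.446% and 1.69% of features. At an unadjusted p below 0.05 there were 2 members lower in Quaking KO, Mbnl1 and Mbnl2, beside 6.84% of features, and 1 higher in Sam68 KO, Hnrnpa1, beside 9.55%. In Quaking KO Mbnl2 averaged 19.4 ± 3.69 CPM, where WT had 29.7 ± 7.03 (-0.63 on the log2 scale, SE 0.22, edgeR adjusted p = 0.383). Quaking KO and WT did not overlap for 4 members (Mbnl1, Mbnl2 and Celf1 below WT, Ptbp2 above it), where 19.0% of features do not overlap. Sam68 KO and WT did not overlap for 1, Rbfox2, where 21.7% of features do not. Both knockouts were set against the same WT libraries.

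The day 0 intervals were narrow for Ptbp1 and Celf1 and wide for Ptbp2 and Rbm24. For Ptbp1 the 95% interval of the log2 fold change was -0.32 to 0.17 in Quaking KO and -0.34 to 0.15 in Sam68 KO, and for Celf1 it was -0.45 to 0.09 and -0.44 to 0.10. For Ptbp2 it was -1.31 to 2.18 and -1.90 to 1.49, and for Rbm24 -0.72 to 1.39 in Sam68 KO. The single fit behind these intervals also held the day 10 libraries, so the Ptbp2 width does not measure its day 0 spread alone. At day 0 Ptbp2 averaged 28.6 ± 1.73 CPM in WT, 38.6 ± 8.43 in Quaking KO and 24.9 ± 5.35 in Sam68 KO. The dominated libraries of day 10 held 136 to 334 CPM. Their part in the Ptbp2 width was not tested. The 3 counts of Rbm24 in Quaking KO put WT at 2.36 times Quaking KO, and counting error alone allows ratios from 0.714 to 12.3 (95% interval).

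In embryoid bodies lacking Quaking, Rbfox2 was higher by 1.51-fold, at 118 ± 10.7 CPM, the WT mean being 79.8 ± 10.6 (0.59 on the log2 scale with SE 0.15, edgeR adjusted p = 0.0044). All 3 Quaking KO libraries lay above all 3 WT libraries, which held for Mbnl1 too and for 31.2% of features without overlap in either direction. This was 1 of 9 members, while 23.9% of features were called in this comparison and 11.1% were called higher. The call was not made on thinning (0.51, edgeR adjusted p = 0.0671), and Quaking KO and WT came from different mixes at day 10. Within MIX_1, at day 0, the difference was 0.13 (95% interval -0.16 to 0.42). That value is from another day, so it cannot separate mix from line at day 10.

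Another 3 members differed at an unadjusted p below 0.05, where 35.6% of features did, and did not pass after adjustment. Mbnl1 averaged 27.0 ± 1.67 CPM in Quaking KO embryoid bodies, above the 12.7 ± 7.09 of WT (0.86 on the log2 scale, edgeR adjusted p = 0.0725). Hnrnpa1 was 10.3 ± 1.9 and 7.31 ± 3.84 CPM (0.91, 0.061), and Rbm20 was 1.8 ± 1.35 and 3.78 ± 4.42 CPM (-1.27, 0.105). Several of these turned on WT replicate 3, the shallow library: without it Hnrnpa1 (1.04, edgeR adjusted p = 0.028), Mbnl2 (-0.55, 0.0432) and Rbm20 (-1.43, 0.0472) passed beside Rbfox2, so that 4 members were called, beside 23.9% of features in that fit. Without all 3 dominated libraries 4 passed, beside 22.1% of features: Rbfox2 (0.65, edgeR adjusted p = 0.00161), Hnrnpa1 (1.05, 0.0212), Mbnl2 (-0.54, 0.0399) and Ptbp2, which turned from -0.79 to 0.81 (0.0037). Rbm20 also passed without Quaking KO replicate 2 (-2.16, edgeR adjusted p = 0.0334) or WT replicate 1 (-1.70, 0.0422), and Hnrnpa1 without Quaking KO replicate 1 (1.02, 0.0452). DESeq2 called Rbfox2 and Mbnl1 (0.94, adjusted p = 0.0425), beside 22.0% of features.

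For Ptbp1, Celf1 and Rbm24 the day 10 values of Quaking KO and WT overlapped. The intervals of the log2 fold change were -0.16 to 0.34, -0.46 to 0.10 and -1.06 to 0.43.

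In embryoid bodies lacking Sam68, no member passed, where edgeR called 0.175% of all features. DESeq2 called none of the 9 either, beside 0.620% of features. At an unadjusted p below 0.05 there were 2 members, both higher, beside 6.75% of features. Rbm24 was 38.3 ± 7.77 CPM against 15.2 ± 2.27 in WT (1.32 on the log2 scale with SE 0.34, edgeR adjusted p = 0.158), and Rbm20 13.5 ± 1.46 against 3.78 ± 4.42 (1.44, SE 0.48, 0.387). The groups did not overlap for these 2 of 9 members, beside 11.4% of features. With no filter on low counts Rbm24 passed (1.24, edgeR adjusted p = 0.0309). Rbfox2, Celf1 and Ptbp1 had intervals of -0.19 to 0.42, -0.31 to 0.25 and -0.19 to 0.30. They were wider for Mbnl1 (-0.80 to 0.67), Mbnl2 (-0.14 to 0.69), Hnrnpa1 (-0.05 to 1.44) and Ptbp2 (-1.10 to 2.52).

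**Figure D5:**
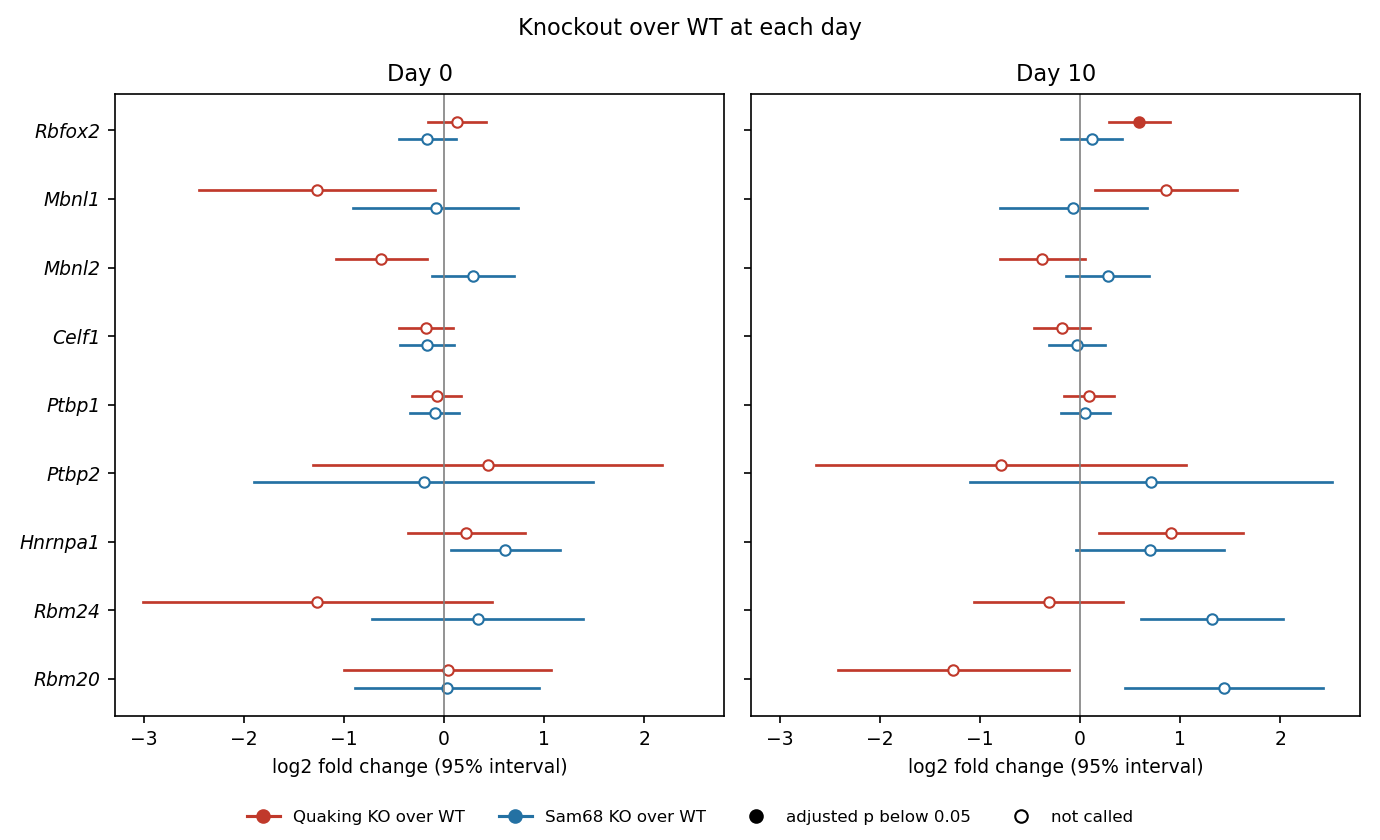
Log2 fold changes of Quaking KO over WT and Sam68 KO over WT with 95% intervals (x axis) for the 9 genes (y axis) at day 0 and day 10; the filled point passed an edgeR adjusted p of 0.05. Rbfox2 in Quaking KO at day 10 (0.59) is the only filled point, and Rbm24 (1.32) and Rbm20 (1.44) lie above 0 in Sam68 KO at day 10 without passing.

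Of the 9 genes, the muscle factors Rbm24 and Rbm20 differed most between the knockouts at day 10. Here, within MIX_3, Rbm24 was 3.10-fold higher in Sam68 KO than in Quaking KO (38.3 ± 7.77 against 12.0 ± 5.17 CPM; 1.63 on the log2 scale with SE 0.34, edgeR adjusted p = 0.000956). Rbm20 was 6.50-fold higher (13.5 ± 1.46 against 1.8 ± 1.35 CPM; 2.70, SE 0.53, 0.000479). Mbnl2 was also higher (122 ± 22.5 against 78.5 ± 5.42 CPM; 0.65, SE 0.20, 0.0207) and Rbfox2 lower (84.8 ± 14.0 against 118 ± 10.7 CPM; -0.48, SE 0.14, 0.0176). These 4 of 9 members (3 higher, 1 lower) stand beside 23.7% of features called, 13.0% higher and 10.6% lower. Without the dominated libraries, which leaves 1 Sam68 KO library whose spread is taken from the other groups, the 4 differences were 1.84, 2.54, 0.91 and -0.70, and 14.9% of features passed. Of the called features 55.1% were higher in Sam68 KO, or 44.5% under RLE scaling, which sets library sizes by the median ratio over features. The groups did not overlap for 5 members, these 4 and Mbnl1, beside 33.7% of features. Mbnl1 was at -0.92 (edgeR adjusted p = 0.0557). In place of 1 member, 2 were called lower by DESeq2, beside 1782 of 15144 features, and with no filter, beside 1446 of 33167. The same held under RLE scaling, beside 1875 of 13701 features, and upper quartile scaling, beside 1630. Without WT day 10 replicate 3, a library outside this comparison that shares its fit, 6 members passed, these 5 and Ptbp2, beside 25.7% of features.

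The Rbm24 call held in each alternative fit and with each library left out. The Rbm20 call held in those that tested it. On thinning, the filter on low counts removed Rbm20, so it was not tested there. Without Quaking KO replicate 2 the Rbm20 difference was 3.60 (edgeR adjusted p = 0.000447). The calls of Rbfox2 and Mbnl2 did not hold throughout. Rbfox2 did not pass without Sam68 KO replicate 1 (edgeR adjusted p = 0.117) or when only these 6 libraries were fitted (0.0616). Mbnl2 did not pass without Sam68 KO replicate 1 (edgeR adjusted p = 0.155), Quaking KO replicate 2 (0.0519) or Quaking KO replicate 3 (0.0918), under RLE scaling (0.0515), with no filter (0.0587), on thinning (0.108) or by DESeq2 (0.0678).

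At day 0 only Mbnl2 was called between the knockouts, higher in Sam68 KO at 36.2 ± 7.28 CPM beside 19.4 ± 3.69 in Quaking KO (0.92 on the log2 scale with SE 0.22, edgeR adjusted p = 0.0174). Of all features 3.31% were called, 2.55% being higher and 0.766% lower, so that 76.9% of calls were higher in Sam68 KO, or 63.0% under RLE scaling. The median over all features was 0.11, and 0.02 under RLE scaling. The groups did not overlap for 4 members (Rbfox2, Mbnl2, Ptbp2 and Rbm24), beside 24.8% of features. The call was lost without Quaking KO replicates 1 (edgeR adjusted p = 0.0752) or 3 (0.147) and Sam68 KO replicates 1 (0.0678) or 2 (0.068). The libraries came from 2 mixes. Rbm24 and Rbm20 were not called at day 0. The ratio of Sam68 KO over Quaking KO was 3.07 for Rbm24, with a 95% counting interval of 0.938 to 15.9, and the interval of the log2 fold change was -1.07 to 1.06 for Rbm20. Ptbp2, at -0.64, passed only without the 3 dominated libraries of day 10 (edgeR adjusted p = 0.0427, beside 3.96% of features) or when these 6 libraries alone were fitted (-0.75, 0.0412).

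Whether the change over time differed between a knockout and WT was tested as an interaction. Mbnl1 passed for Quaking KO, with a rise larger by 2.13 on the log2 scale than in WT (SE 0.66, edgeR adjusted p = 0.0446), beside 8.88% of features that passed, 5.12% with a positive and 3.76% with a negative difference. It rests on 8 counts in Quaking KO at day 0 and on 2 in WT day 10 replicate 3. It did not pass without Quaking KO day 0 replicates 2 (1.79, edgeR adjusted p = 0.104) or 3 (1.66, 0.173), nor without Quaking KO day 10 replicates 2 or 3, any 1 of the WT day 0 libraries or WT day 10 replicate 1 (edgeR adjusted p 0.0619 to 0.0821). Without Quaking KO day 0 replicate 1, which leaves 1 count there, it was 4.26 (edgeR adjusted p = 0.00406). No member passed for Sam68 KO by edgeR or DESeq2, where 0.431% of features did by edgeR and 0.984% by DESeq2; Rbm20 alone had an unadjusted p below 0.05 (1.41, SE 0.65, edgeR adjusted p = 0.53), beside 8.98% of features. For Rbm24 the rise was larger by 0.99 (SE 0.63) in Sam68 KO than in WT (edgeR adjusted p = 0.718). For Rbfox2 the change was larger by 0.47 (SE 0.20) in Quaking KO than in WT and did not pass (edgeR adjusted p = 0.171).

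Across the 18 libraries, log2 CPM of several members rose and fell together, as a description of libraries that share day, depth and mix. Ptbp1 and Celf1 had r = 0.94, Mbnl2 and Rbm24 0.93, Mbnl1 and Mbnl2 0.88, and Ptbp1 and Rbm24 -0.91. Of 36 pairs, 8 had an absolute r above 0.8, and 2 of these 8 kept their sign among both the 9 day 0 and the 9 day 10 libraries. Among 8891 features of at least 10 CPM, ENSMUSG00000020917.17 was most like Ptbp1 (r = 0.991), with means of 780 CPM in WT at day 0 and 329 at day 10, and 1449 features had r above 0.9 with Ptbp1. For Ptbp2 there were 35 such features. The most like was ENSMUSG00000036473.15 (r = 0.957), with means of 239 CPM in WT, 154 in Sam68 KO and 29.4 in Quaking KO at day 10. The WT and Sam68 KO means include the 3 dominated libraries, and the Quaking KO mean includes none of them. Ptbp2 itself measured 34.8, 32.3 and 327 CPM in WT at day 10, the last in the dominated library. The part of those libraries in this likeness was not tested, so the means are not a result about the lines.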

How the data were processed

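Ribosome footprints were measured in 18 libraries, 6 groups of 3, grouped by the titles in the labels. Per the labels' protocols, cells stood in cycloheximide for 15 minutes, unprotected RNA was digested, and RNA of 28 to 32 nt was gel-purified. The authors deposited raw counts per Ensembl gene, 1 file per library. The submitters' processing notes list bcl2fastq 2.17.1.14, STAR 2.5.3a and Bowtie2 and the builds mm10 and GRCm38. The counting program, strand use and treatment of multiply matching reads were not given in the sources used, so a gene and one overlapping it in antisense may share reads.

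Counts were tested in R 4.3.3 with the robust quasi-likelihood test of edgeR 4.0.16, TMM scaling and the default filter by group, which kept 13701 of 33167 features with a count. A single fit held all 18 libraries, with a mean for each group and 11 contrasts, 2 of them interactions. Calls are at a two-sided Benjamini-Hochberg adjusted p of 0.05 over all features tested. CPM use TMM-scaled library sizes; SE and 95% intervals come from the fit. Correlations used log2(CPM + 1). Floors of 3 counts and exact binomial intervals cover counting error only. The design calls the replicates biological and does not say how they were separated; p-values measure the spread between these samples. Every pair of replicates differed by more than sampling noise (chi-square over degrees of freedom 4.80 or more).

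Alternatives were DESeq2 1.42.0, upper quartile or RLE scaling, no filter on low counts, only the compared groups, replicate number or mix as a block, thinning to the smallest total, and leaving out each library or the 3 dominated ones. The members, the lists and the choice of dominated libraries were made with earlier results of these data known. By rule, all 9 members are reported in every comparison, and of other features the most alike over 18 libraries among those of at least 10 CPM, of which 2 are named. Other splicing regulators (5 lists) and cell type markers (10 lists) were listed by symbol, but 0 of the IDs matched the symbol table used, so no list was run.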

Additional observations from a re-analysis of the deposited data

Results flagged for a closer look

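The change of Mbnl1 from day 0 to day 10 differed between Quaking KO and WT by a test of the difference itself (interaction log2 fold change 2.13, SE 0.66, edgeR adjusted p = 0.0446). Mbnl1 rose by 4.80 in Quaking KO and by 2.68 in WT. Counts behind it were 8 over the Quaking KO day 0 libraries and 62 over those of WT. Over the alternatives run, the interaction was lowest at 1.66, on dropping the third Quaking KO library of day 0 (edgeR adjusted p = 0.173), and went up to 4.26 when replicate 1 of that group was dropped (0.00406).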

How the results depend on the processing

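The alternatives were 27 settings for each pair of groups. Of 27 calls of a member, 10 held in every setting: Mbnl2, Ptbp1 and Rbm24 over time in the 3 lines, and Rbm24 between the knockouts at day 10. Another 2, Rbm20 over time in Sam68 KO and between the knockouts at day 10, held where tested; after thinning the filter on low counts removed Rbm20. The other 15 were lost in at least 1 setting. A further 21 tests passed in some setting only. These counts include the fit with mix as a block, where most effects are not those of the comparison they stand for.

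For Quaking KO against WT at day 10, 1 member was called, beside 23.9% of features. The count was 2 with DESeq2, beside 22.0% of features. It was 3 with RLE scaling, beside 1820 features higher and 1513 lower of 13701. With upper quartile scaling it was 2, beside 1685 higher and 1603 lower. After thinning it was 0, beside 1021 higher and 1128 lower of 10727. Leaving out 1 library gave 1 to 4. With mix as a block the Quaking KO effect comes from the day 0 libraries alone, so its count of 0 is no day 10 result. For Sam68 KO against Quaking KO at day 0, 1 member was called, beside 3.31% of features. The count was 2 with only the compared groups, beside 264 features higher and 227 lower of 11269. It was 0 after thinning (130 higher and 58 lower of 10727) or with upper quartile scaling (222 and 146 of 13701). Leaving out 1 library gave 0 to 1. With mix as a block this difference comes from the day 10 libraries alone, so its 4 are the day 10 calls. At day 10, 4 members were called, beside 23.7% of features. The count there was 2 after thinning, beside 1062 higher and 936 lower, and 2 to 6 with 1 library left out. For Sam68 KO against WT (0 called) it was 1 with no filter at day 10, beside 46 features higher and 49 lower of 33167. Mix as a block gave 2, beside 509 higher and 692 lower of 13701. That effect adds Quaking KO over WT at day 0 to Sam68 KO over Quaking KO at day 10. The Quaking KO interaction (1 called) became 0 with only the compared groups, thinning, upper quartile scaling or the replicate block, and 0 to 1 with 1 library left out. Over time, leaving out 1 library gave 6 to 7 in WT, 5 to 6 in Quaking KO and 7 to 8 in Sam68 KO.

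Ptbp2 in Quaking KO against WT at day 10 turned sign, at 0.81 without the dominated libraries. With mix as a block, 1 day effect is fitted for all lines and 1 line effect for both days. That fit has as many terms as there are groups. Its day effect is the WT change plus the Sam68 KO change minus the Quaking KO change. It was -0.21 for Rbfox2, 3.24 for Rbm20, 0.57 for Mbnl1 (edgeR adjusted p = 0.626) and -0.52 for Celf1 (0.0737). The Quaking KO change enters with a minus sign, so the signs for Rbfox2 and Rbm20 do not show a reversal in Quaking KO. Rbm20 in Sam68 KO against Quaking KO was at 2.70 there, the value of the day 10 libraries alone.

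Same-numbered libraries were not alike throughout: the lowest correlation of their deviations was between -0.20 and 0.02 over the 9 pairs of groups. The largest was 0.51, for replicate 1 of Sam68 KO and WT at day 10, where replicates 2 and 3 had -0.11 and 0.32. With the replicate block the counts were those without it (6, 6 and 8 over time in WT, Quaking KO and Sam68 KO, 1 for Quaking KO against WT at day 10, 1 and 4 between the knockouts at day 0 and day 10), except the Mbnl1 interaction (2.19, edgeR adjusted p = 0.0524). Depth limited the low genes: 3 counts were 0.233 CPM in the deepest library and 7.05 in the shallowest.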
